A study of Mus musculus with 156 samples.

Results

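Firre overexpression at 96 h is the contrast, in mouse embryonic stem cells (ESCs) that carry the endogenous Firre gene, between cells with a Firre transgene that doxycycline switches on and their matched control line. For each gene the change from 0 to 96 h (5760 min) in the control was subtracted from the change in the transgene line, and this difference is called the response. The members are the 12 RNA-seq libraries of those groups, of 156 libraries in the series and 60 in its long time course. They were taken by their labels: wild-type (WT) control at 0 h, WT control at 96 h, WT transgene line at 0 h and WT transgene line at 96 h, with 3 replicates each. All 12 libraries share the WT genotype and medium with serum, LIF and inhibitors of MEK (PD0325901) and of GSK3 (CHIR99021). Doxycycline was given the day after seeding, after a medium change, to the transgene and the control cells alike, except at 0 h. Doxycycline and time in culture are therefore in both arms, and they cannot be told apart within the control. Each arm is 1 line; whether it is a clone, the promoter of the transgene and what separates replicates (dishes or cultures) are not given in the sources used here, so p-values measure only the spread between these samples.

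Firre is a long noncoding RNA transcribed from the X chromosome. It carries repeated sequence elements, stays in the nucleus, binds the nuclear matrix factor HNRNPU and has been described in contact with loci on other chromosomes. ESCs in medium with LIF and both inhibitors are held near a naive pluripotent state, in which factors such as Nanog, Klf4 and Esrrb are active and lineage genes are low. The overexpression contrast asks what further Firre RNA, made from a transgene, changes in cells that already have the gene.

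Firre (ENSMUSG00000085396.7; chromosome X, 50555744 to 50635321, minus strand, mm10) was higher in the transgene line both before and after doxycycline. Levels are given as TPM, the share of transcripts after correction for their length. Firre stood at 24.7, 24.3 and 23.6 TPM in the WT control at 0 h and at 21.3, 22.3 and 22.9 TPM there at 96 h. In the transgene line it stood at 45.9, 45.8 and 46.8 TPM at 0 h, already above every control library. At 96 h the transgene libraries held 63.6, 69.6 and 62.8 TPM, above all 9 others.

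The read counts of Firre moved less than its TPM. As CPM, counts scaled to library size, Firre went from 74.3, 72.9 and 73.0 to 81.7, 88.0 and 85.5 in the transgene line, while the control held 59.6, 59.3 and 58.7 at 0 h and 59.0, 62.4 and 61.8 at 96 h. Fold changes below are log2 values of the counts with their standard error, from edgeR's quasi-likelihood test, and a gene passed at an adjusted p under 0.05 over all genes tested. On this scale the Firre response was 0.17 ± 0.06 (edgeR adjusted p = 0.0710) and did not pass, although the line difference was 0.31 ± 0.04 at 0 h and 0.48 ± 0.04 at 96 h (edgeR adjusted p = 6.68e-08 and 7.84e-15). It passed in 4 of 21 alternative analyses, among them limma on log2(TPM + 1), with 0.61 (limma adjusted p = 0.00285), an alternative added after the data were seen. The ratio of count to TPM, which follows the effective transcript length that the quantification assigned, stood relative to the control at 0 h at 1.04 in the control at 96 h, at 0.644 in the transgene line at 0 h and at 0.512 at 96 h. Its log2 shift under the response contrast was -0.39, and 8 of 8892 genes with a mean above 10 CPM had a lower one. The counts and the TPM of Firre thus do not give the same fold change, and the sources used here do not say how transcript values were joined into gene values.

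**Figure D1:**
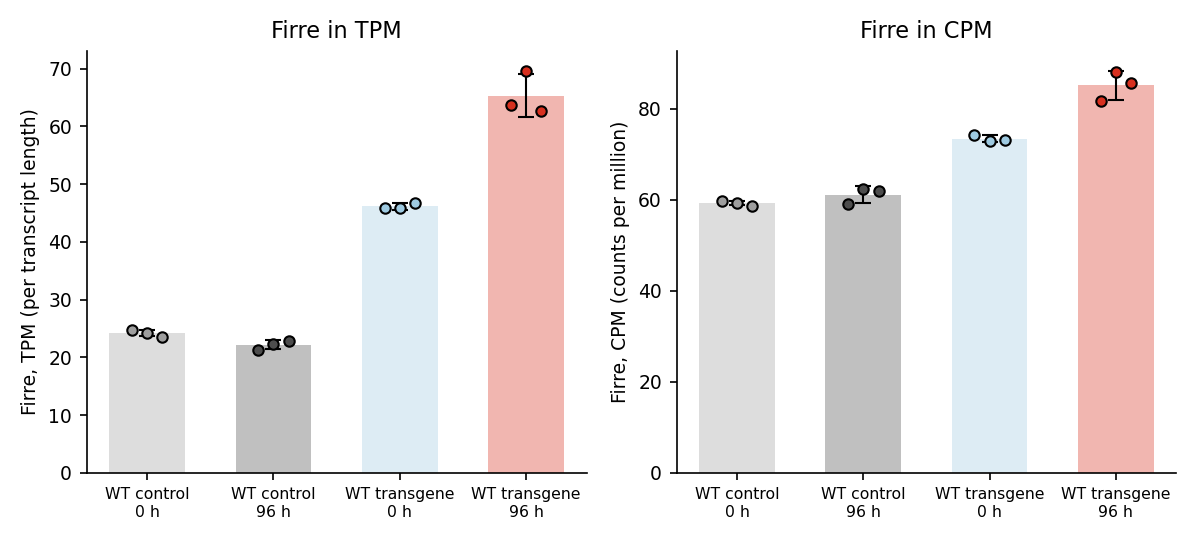
Firre in the 12 libraries, as TPM (left) and CPM (right). Points are libraries, bars are group means and error bars are SDs (n = 3). In TPM the transgene line is above every control library at both times, and its 3 libraries at 96 h are above its 3 at 0 h; in CPM the same order holds with smaller steps.

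The 12 libraries held 24318555 to 37733949 counts, of which 3.42 to 4.46% were from mitochondrially encoded genes. The 10 ESC markers summed to 8147 to 8666 TPM per library. In the transgene line at 96 h the sum was 8147 to 8267 TPM, below every other group. Dppa5a alone, which did not pass, held 5471 to 5949 TPM of it. Of the 10 markers Klf4 passed higher and Nanog lower. The part of the sum in the results was not tested. In bulk RNA fewer cells of a type and less RNA per cell cannot be told apart. Of the markers of other cell types, 7 of 8 for fibroblasts, 5 of 6 for primitive endoderm, 4 of 6 for trophoblast, 3 of 5 for neuroectoderm and 3 of 4 for mesoderm were under 1 TPM in all 12 libraries. None of those tested passed in the response. Col1a2, Col3a1, Postn, Dcn, Lum, Foxa2, Tpbpa, Neurog2, Hes5 and Mesp1 had counts too low to be tested. Replicate 1 of the WT control at 96 h stood apart from the other replicates of its group, with a chi-square per degree of freedom of 7.78 and 7.01 against replicates 2 and 3, where those differed from each other by 2.77 and other pairs of one group by 2.43 to 4.26. Without that library the response had 1843 genes that passed, of which 1315 also passed with it.

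The response at 96 h was broad and mostly small. Of 17565 genes tested 1446 (8.23%) passed in edgeR, 577 higher (3.28%) and 869 lower (4.95%). The median size among them was 0.26 on the log2 scale. A size of at least 1 was reached by 58 genes that rose and 21 that fell, so the few strong changes were mainly rises. The number that passed depended on single replicates and on the scale. It was 1530, 400 and 535 without replicate 1, 2 or 3 of every group and 953 without replicate 2 of the WT control at 96 h. With limma on log2(TPM + 1), added after the data were seen, 352 genes passed, and 267 of them (75.9%) were higher, against 39.9% in edgeR.

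Both arms moved over the 96 h. The transgene line changed in 5434 genes (30.9%) and the control in 4656 (26.5%). The lines differed in 2312 genes at 0 h (13.2%), before doxycycline, and in 3076 genes at 96 h (17.5%). A response can therefore stand for a change in the transgene line, for a change in the control, or for a difference between lines at 0 h that was gone at 96 h, and values of both arms are given below for the genes described in most detail.

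The 15 largest rises, taken among genes with a mean of at least 1 CPM, were Rapgef4, Duox1, Adgrg1, Shf, Apod, Epx, Nceh1, Cdh3, Ascl2, Pclo, Tfap2a, Ror1, Impdh1, Pde6d and Ssh3. They were chosen by this contrast, so the values that follow describe them. In all 15 the 3 transgene libraries at 96 h were above the other 9 libraries in TPM, as were those of 977 genes in all (5.56%).

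Several of them act in signalling at the membrane. Rapgef4 (ENSMUSG00000049044.16; chromosome 2, 71981240 to 72257474, plus strand) encodes EPAC2, an exchange factor that activates Rap GTPases when it binds cyclic AMP. It stood at 0.0990, 0.149 and 0.348 TPM in the control at 0 h and 0.0828, 0.395 and 0.0470 at 96 h, and at 0.345, 0.438 and 0.0784 TPM in the transgene line at 0 h. At 96 h the transgene libraries held 3.48, 4.72 and 4.15 TPM. The gene was at or under 0.438 TPM in 9 libraries and several times higher in 3, with a response of 5.71 ± 0.53 (edgeR adjusted p = 1.31e-13). Duox1 (ENSMUSG00000033268.8; chromosome 2, 122315672 to 122347972, plus strand), an NADPH oxidase of the membrane that makes hydrogen peroxide, showed the same pattern. Its libraries held 0.102, 0.0809 and 0.0794 TPM in the control at 0 h, 0.0672, 0.0930 and 0.0668 at 96 h and 0.0543, 0.0827 and 0.0850 in the transgene line at 0 h, against 2.19, 1.86 and 2.01 TPM in the transgene line at 96 h. The response was 4.90 ± 0.43 (edgeR adjusted p = 1.29e-14). For both genes the fold change starts from levels at which a library holds few reads, and its size is less certain than its direction.

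Adgrg1 (ENSMUSG00000031785.16; chromosome 8, 94974751 to 95014217, plus strand), the adhesion G protein-coupled receptor GPR56, stood at 0.887, 0.616 and 0.486 TPM in the control at 0 h and 0.380, 0.792 and 0.378 at 96 h. In the transgene line it was at 0.326, 1.68 and 0.473 TPM at 0 h and 5.30, 4.57 and 5.04 at 96 h. Replicate 2 of the transgene line at 0 h was the highest of the 9 other libraries and still below all 3 at 96 h (response 3.78 ± 0.23, edgeR adjusted p = 1.65e-22). Shf (ENSMUSG00000033256.14; chromosome 2, 122348892 to 122369162, minus strand), an adaptor with an SH2 domain that binds receptor tyrosine kinases, was expressed in every library. It stood at 7.47, 8.93 and 9.48 TPM and 7.38, 9.64 and 6.68 TPM in the control at 0 and 96 h, at 9.77, 10.3 and 8.27 TPM in the transgene line at 0 h and at 48.7, 46.6 and 46.7 TPM at 96 h. The spread within groups was far smaller than this step (response 2.57 ± 0.12, edgeR adjusted p = 1.41e-27).

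Smaller rises of this kind were those of Ror1, a receptor tyrosine kinase that binds Wnt5a (1.21 ± 0.28, edgeR adjusted p = 0.00184), Pde6d, a carrier of prenylated proteins (1.18 ± 0.09), and Ssh3, a phosphatase of the actin regulator cofilin (1.17 ± 0.27). Pde6d was the most abundant of them, at 20.8, 19.9 and 21.4 TPM in the transgene line at 0 h and 41.7, 40.6 and 38.3 at 96 h, against 17.5, 16.7 and 18.97 TPM in the control at 96 h. Without replicate 3 of every group Ror1 and Ssh3 did not pass, and Ssh3 also did not pass with limma on log2(TPM + 1).

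Genes of lipid handling were among the rises. Apod (ENSMUSG00000022548.14; chromosome 16, 31296192 to 31314808, minus strand), a secreted lipocalin that carries lipids, was at 4.15, 5.57 and 5.52 TPM in the control at 0 h, 4.88, 6.47 and 5.00 at 96 h and 5.49, 4.90 and 5.03 in the transgene line at 0 h. At 96 h the transgene libraries held 28.8, 28.5 and 28.6 TPM, the closest agreement between replicates of any gene in this group (response 2.49 ± 0.16, edgeR adjusted p = 2.75e-21). Nceh1, an enzyme that hydrolyses cholesterol esters, stood at 8.19, 7.89 and 8.52 TPM in the control at 0 h and fell to 6.06, 6.55 and 5.70 at 96 h (-0.30 ± 0.06, edgeR adjusted p = 1.80e-05). In the transgene line it rose from 7.45, 7.65 and 6.76 to 16.3, 16.6 and 17.2 TPM, and the response was 1.53 ± 0.08 (edgeR adjusted p = 1.41e-27).

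The adhesion gene Cdh3 (P-cadherin) moved in both arms. It was lower in the control at 96 h (2.35, 1.99 and 2.12 TPM) than at 0 h (3.33, 3.70 and 3.28 TPM), and higher in the transgene line at 96 h (6.85, 6.996 and 6.79 TPM) than at 0 h (3.29, 4.04 and 3.93 TPM). Its response of 1.48 ± 0.09 joins a change of -0.56 in the control and of 0.92 in the transgene line. Pclo, a scaffold of presynaptic active zones, was under 0.3 TPM in every library, and its response of 1.32 ± 0.28 (edgeR adjusted p = 0.000617) rests on low counts.

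Transcription factors of trophoblast and ectoderm were also among the 15. Ascl2, a basic helix-loop-helix factor needed for the placenta, stood at 4.73, 5.15 and 4.42 TPM in the control at 0 h, 3.95, 3.35 and 3.903 at 96 h, 4.27, 4.41 and 4.59 in the transgene line at 0 h and 9.95, 11.6 and 10.3 at 96 h. Its response was 1.37 ± 0.14 (edgeR adjusted p = 1.61e-11). Tfap2a, the factor AP-2 alpha, rose in both lines, to 0.816, 1.15 and 1.08 TPM in the control and to 3.84, 3.94 and 4.17 TPM in the transgene line, and it was already higher in the transgene line at 0 h (0.67 ± 0.17; response 1.21 ± 0.23). The enzymes were Impdh1, which makes guanine nucleotides (1.18 ± 0.06; 20.3, 20.1 and 19.3 TPM at 0 h and 48.6, 48.1 and 50.2 at 96 h in the transgene line), and Epx, the eosinophil peroxidase (2.27 ± 0.29). Epx fell in the control (-0.68 ± 0.23) and did not exceed 1.19 TPM.

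Genes below the largest folds can still have small p-values. Dpf2, a subunit of BAF chromatin remodelling complexes, Slc29a3, a nucleoside transporter, and Umps, an enzyme of pyrimidine synthesis, had responses of 0.89 ± 0.04, 0.99 ± 0.06 and 0.72 ± 0.04 (edgeR adjusted p = 1.99e-27, 5.94e-24 and 4.41e-27). They are outside the rule for named genes and were chosen after their values were seen.

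**Figure D2:**
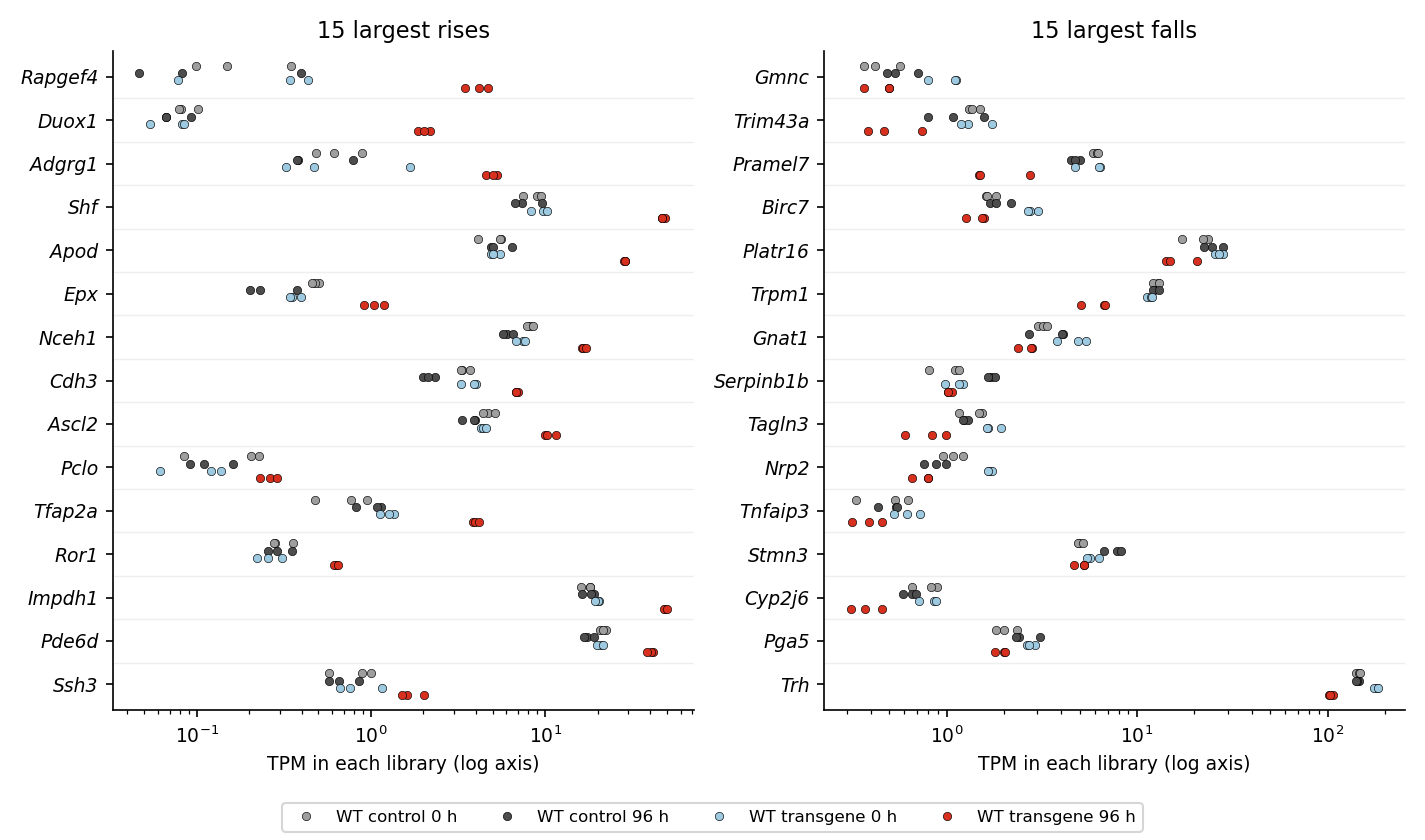
TPM in each of the 12 libraries (log axis) for the 15 largest rises (left) and the 15 largest falls (right) of the response. For every rise the 3 transgene libraries at 96 h lie above the other 9; for 7 of the falls they lie below them.

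The promoters of 4 of the 5 largest rises are shown, and they differ in base composition; Adgrg1 is not shown because the table lists several starts for it, away from the start of its annotated gene. The sequences below are from RefSeq (GRCm38.p6, 250 bases before to 50 after the start, 5′ to 3′ on the strand of the gene) and are shown because these genes rose together. Capitals mark the GC box GGGCGG or its reverse complement, matches on either strand, overlapping ones included.
Rapgef4, chr2:71980965-71981264, plus strand: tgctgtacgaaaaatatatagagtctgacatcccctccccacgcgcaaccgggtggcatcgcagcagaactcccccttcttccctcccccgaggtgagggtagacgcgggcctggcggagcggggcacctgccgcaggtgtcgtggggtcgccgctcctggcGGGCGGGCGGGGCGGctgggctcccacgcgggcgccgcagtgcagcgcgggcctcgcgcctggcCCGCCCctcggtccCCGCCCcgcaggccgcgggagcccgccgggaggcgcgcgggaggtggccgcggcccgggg
Shf, chr2:122369098-122369397, minus strand: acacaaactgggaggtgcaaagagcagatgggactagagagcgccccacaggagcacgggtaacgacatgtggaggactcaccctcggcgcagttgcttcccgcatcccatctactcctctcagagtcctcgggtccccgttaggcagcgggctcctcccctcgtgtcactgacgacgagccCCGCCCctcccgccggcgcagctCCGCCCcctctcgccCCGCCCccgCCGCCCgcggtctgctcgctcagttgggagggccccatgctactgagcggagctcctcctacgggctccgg
Duox1, chr2:122315422-122315721, plus strand: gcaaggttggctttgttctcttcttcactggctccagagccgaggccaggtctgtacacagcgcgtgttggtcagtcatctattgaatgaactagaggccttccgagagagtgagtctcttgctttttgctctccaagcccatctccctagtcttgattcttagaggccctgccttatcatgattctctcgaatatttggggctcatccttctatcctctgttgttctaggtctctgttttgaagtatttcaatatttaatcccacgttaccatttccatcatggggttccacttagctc
Apod, chr16:31314759-31315058, minus strand: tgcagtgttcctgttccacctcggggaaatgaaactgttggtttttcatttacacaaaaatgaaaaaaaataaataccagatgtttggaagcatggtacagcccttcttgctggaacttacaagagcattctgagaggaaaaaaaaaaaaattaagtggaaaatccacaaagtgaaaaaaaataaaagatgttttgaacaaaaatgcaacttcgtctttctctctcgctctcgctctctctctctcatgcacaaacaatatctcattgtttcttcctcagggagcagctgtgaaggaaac
The promoter of Rapgef4 held 40 CG dinucleotides and 5 GC boxes and that of Shf 27 and 4, whereas Duox1 had 6 CG dinucleotides and Apod 4, with no GC box in either. Over 32851 promoters of the same length the median was 7 CG dinucleotides, with 31 at the 90th percentile, and 35.7% held a GC box. None of the 4 held TATAAA (13.6% of promoters) or the E-box CACGTG (7.15%). A match is a description of the letters in this window and nothing more.

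Some rises lie side by side in the genome. Duox1 and Shf are neighbours on chromosome 2 and point toward each other, with 920 bases between them. Since the library kit does not mark strand, reads past the end of either gene cannot be assigned by direction. Apod has Ppp1r2, an inhibitor of protein phosphatase 1, at a gap of 20915 bases. Ppp1r2 went from 37.4, 39.2 and 38.0 to 67.5, 69.1 and 65.4 TPM in the transgene line while the control held 37.0, 37.1 and 34.8 and then 38.1, 37.2 and 38.2 TPM (0.60 ± 0.05, edgeR adjusted p = 2.19e-14).

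Near Impdh1 on chromosome 6 the filamin gene Flnc (1.08 ± 0.12), Prrt4 (1.16 ± 0.25) and Ccdc136 (0.42 ± 0.11) also passed, and near Ascl2 the tyrosine hydroxylase gene Th (1.65 ± 0.39) and Tspan32 (0.44 ± 0.14). Flnc differed between the lines at 0 h, with 0.765, 0.754 and 0.702 TPM in the transgene line and 1.21, 1.30 and 1.10 in the control, and stood at 1.31, 1.52 and 1.40 TPM in the transgene line at 96 h. Epx had Cuedc1 (1.08 ± 0.24) within 500 kb. Over all 205 tested genes within 500 kb of the 15 rises, 14 were higher (6.83%, against 3.28% of all genes) and 3 lower (1.46%, against 4.95%). Rapgef4 had 2 such neighbours among 9, Map3k20 (0.39 ± 0.10) and Cdca7 (0.14 ± 0.04), and Adgrg1 had none among 25.

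The 15 largest falls were smaller than the rises and many came from low counts. They were Gmnc, Trim43a, Pramel7, Birc7, Platr16, Trpm1, Gnat1, Serpinb1b, Tagln3, Nrp2, Tnfaip3, Stmn3, Cyp2j6, Pga5 and Trh. In 7 of them the transgene libraries at 96 h were below the other 9 in TPM (722 genes in all, 4.11%). In every alternative that gave a value 8 of the 15 kept their call, as did 13 of the 15 rises. Trim43a, Gnat1, Serpinb1b, Tagln3, Tnfaip3, Cyp2j6 and Pga5 lost it in at least 1, with largest adjusted p values of 0.0813 to 0.576 over edgeR, DESeq2 and limma.

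Trh, the precursor of thyrotropin-releasing hormone, was the most abundant of the falls and had the smallest p. It stood at 142, 146 and 149 TPM in the control at 0 h and 146, 142 and 141 at 96 h, at 182, 176 and 185 in the transgene line at 0 h and at 102, 107 and 103 at 96 h. The transgene line thus began above the control and ended below it (-0.86 ± 0.05, edgeR adjusted p = 3.91e-22). Trpm1, a cation channel of retinal bipolar cells and melanocytes, was at 11.3 to 13.1 TPM in the 9 other libraries and at 5.06, 6.74 and 6.81 TPM in the transgene line at 96 h (-1.01 ± 0.09, edgeR adjusted p = 8.80e-14). The transgene line fell (-0.93 ± 0.07), and the control change of 0.08 ± 0.06 did not pass.

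Pramel7, whose protein promotes turnover of UHRF1 and low DNA methylation in naive cells, stood at 6.38, 4.71 and 6.32 TPM in the transgene line at 0 h and 2.75, 1.47 and 1.5 at 96 h. The control held 5.89, 6.18 and 6.22 and 5.03, 4.52 and 4.72 TPM, so all 3 late transgene libraries were below the rest, with replicates 2 and 3 lowest (-1.19 ± 0.17, edgeR adjusted p = 4.94e-07). Its neighbour and relative Pramel6 had -0.80 ± 0.27 (edgeR adjusted p = 0.0465) and did not pass in 18 of 21 alternatives, DESeq2 among them. The Pramel genes are close relatives, as are the Trim43 genes and Serpinb1b with its neighbour Serpinb9b (-0.44 ± 0.13), and how reads were shared among copies could move their counts.

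The noncoding RNA gene Platr16 (-1.10 ± 0.17) lies in a zinc finger cluster on chromosome 4 in which Zfp980 (-0.33 ± 0.07), Zfp986 (-0.50 ± 0.09) and Gm13212 (-0.42 ± 0.07) also passed. Platr16 was at 28.3, 25.8 and 27.0 TPM and then 20.5, 14.2 and 14.8 TPM in the transgene line, and replicate 1 at 96 h overlapped the control at 0 h (17.1, 23.5 and 22.2 TPM). Birc7, an inhibitor of apoptosis, and Stmn3, a microtubule regulator of neurons, lie within 500 kb of each other on chromosome 2 and had -1.15 ± 0.22 and -0.92 ± 0.16 (edgeR adjusted p = 0.000123 and 2.21e-05). For Stmn3 the control rose from 4.93, 4.91 and 5.22 to 7.89, 6.72 and 8.23 TPM, whereas the transgene line was between 4.65 and 6.28 TPM at both times and its change did not pass (-0.18 ± 0.11).

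Gmnc, a regulator of multiciliated cells, and Nrp2, a receptor for semaphorins and VEGF, had the opposite history. Both were higher in the transgene line than in the control at 0 h (1.22 ± 0.20 and 0.66 ± 0.11), and at 96 h the differences were -0.42 ± 0.22 and -0.28 ± 0.12 and did not pass. Nrp2 held 1.68, 1.72 and 1.65 TPM in the transgene line at 0 h, against 1.23, 1.08 and 0.954 in the control, and 0.798, 0.802 and 0.662 at 96 h against 0.884, 0.993 and 0.762. These responses (-1.64 ± 0.30 and -0.93 ± 0.16) therefore contain the difference between the lines before doxycycline. Over all 176 tested genes within 500 kb of the 15 falls, 5 were higher (2.84%) and 12 lower (6.82%).

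Naive pluripotency genes moved by small amounts, and more of those that passed were lower. Of 16 tested 2 were higher and 4 lower (37.5%), beside 3.28% higher and 4.95% lower (8.23%) over all genes. The median was -0.13, against -0.01 over all genes tested. The lists used here and below were chosen with earlier results of these data known, and their counts and medians describe them. Nanog, the homeodomain factor of the naive network, was at 708, 708 and 723 TPM in the control and 730, 737 and 732 in the transgene line at 0 h, and at 695, 706 and 689 TPM in the control at 96 h and 695, 690 and 682 in the transgene line at 96 h (-0.15 ± 0.04, edgeR adjusted p = 0.00998). The late transgene libraries overlapped the late control, and replicate 3 of the former, at 682 TPM, was the lowest of the 12. The nuclear receptor gene Nr0b1 (-0.24 ± 0.06), Tbx3 (-0.15 ± 0.05) and Tet2 (-0.14 ± 0.04) were the other members that passed lower. Klf4 (0.19 ± 0.05) and Dppa3 (0.61 ± 0.15), a maternal factor that protects against DNA methylation, passed higher. Klf4 started lower in the transgene line (90.1, 97.2 and 91.7 TPM, against 108, 111 and 105) and did not differ from it by a passing amount at 96 h (122, 121 and 116 against 117, 116 and 119 TPM).

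Of 12 general pluripotency genes 3 passed lower and none higher (25%, beside 8.23% of all genes), with a median of -0.12. They were Lin28a, which blocks let-7 maturation, Tdgf1, the Nodal co-receptor Cripto, and L1td1, an RNA-binding protein. Lin28a went from 128, 135 and 129 to 95.3, 95.2 and 94.6 TPM in the transgene line and from 119, 119 and 117 to 107, 109 and 107 in the control, so that the transgene libraries at 96 h were the lowest of the 12 (-0.42 ± 0.04, edgeR adjusted p = 8.62e-12). Tdgf1 (-0.32 ± 0.05) and L1td1 (-0.22 ± 0.04) were higher in the transgene line at 0 h (0.29 ± 0.03 and 0.24 ± 0.03) and differed from the control by -0.03 and 0.01 at 96 h. Of 12 genes of the Lin28 and let-7 axis 3 passed lower and none higher (25%, beside 8.23% of all genes). They were Lin28a and the let-7 targets Hmga2 (-0.80 ± 0.08) and Igf2bp2 (-0.39 ± 0.05). Hmga2, an architectural chromatin protein, rose in the control from 7.34, 8.003 and 7.41 to 13.5, 12.1 and 12.8 TPM and stayed at 11.6, 11.8 and 12.2 and then 12.3, 11.7 and 12.2 TPM in the transgene line.

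Regulators of DNA methylation had the highest share of genes that passed among the 37 lists, 7 of 12 (58.3%), 2 higher and 5 lower. Over all genes 8.23% passed. The de novo methyltransferase genes Dnmt3a (0.24 ± 0.05) and Dnmt3b (0.15 ± 0.05) were the higher ones. In Dnmt3a the control fell from 26.7, 27.8 and 26.9 to 20.9, 19.3 and 19.08 TPM and the transgene line held 24.5, 25.7 and 24.9 and 24.6, 24.6 and 25.8. Lower were their cofactor Dnmt3l (-0.29 ± 0.05), the imprint-protecting zinc finger gene Zfp57 (-0.14 ± 0.04), Tet2, Pramel6 and Pramel7. Dnmt3l stood at 223, 222 and 218 TPM in the transgene line at 0 h, above the control at 167, 169 and 164, and at 186, 184 and 191 TPM at 96 h. The list held opposite movements, and its median was -0.08. Pramel6 and Dnmt3b did not pass in 18 and 11 of 21 alternatives. With limma on log2(TPM + 1) 2 of these 12 genes passed, and 2 of the 16 naive pluripotency genes.

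Imprinted genes, expressed from 1 parental copy, passed higher more often than lower, 7 and 2 of 25, with a median of 0.22. Over all genes 3.28% passed higher and 4.95% lower. Before doxycycline 8 of the 25 were higher in the transgene line and 4 were lower. Peg10, a retrotransposon-derived gene of the placenta, rose in both lines, from 4.96, 4.95 and 5.03 to 9.13, 8.81 and 8.57 TPM in the control and from 4.0, 4.16 and 4.15 to 13.6, 14.4 and 13.1 in the transgene line (0.87 ± 0.10, edgeR adjusted p = 3.83e-09). Peg3, a zinc finger gene, went from 23.2, 23.0 and 23.1 to 31.0, 30.1 and 29.6 TPM in the transgene line, above all control libraries, which were at 21.1 to 24.4 (0.50 ± 0.04, edgeR adjusted p = 1.63e-14). The amino acid transporter gene Slc38a4 (0.38 ± 0.05), Mest (0.28 ± 0.06), Plagl1 (0.24 ± 0.05), Igf2r (0.22 ± 0.06) and Sgce (1.49 ± 0.35) were the other higher members. The lower ones were the maternally expressed noncoding RNA genes Rian (-0.31 ± 0.05) and Meg3 (-0.25 ± 0.06) of the Dlk1-Dio3 locus. Rian was higher in the transgene line at both times, at 248, 245 and 242 TPM at 0 h and 247, 262 and 248 at 96 h, and its lower response came from the control, which went from 135, 142 and 140 to 165, 170 and 171 TPM. Which parental copy was read was not measured.

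Of 15 germline genes 26.7% passed, beside 8.23% of all genes. The 3 higher ones were Rhox5 (0.60 ± 0.11), Tex19.1 (0.40 ± 0.05) and Dppa3, and Hormad1, a protein of meiotic chromosome axes, was lower (-0.47 ± 0.11). The first 3 were lower in the transgene line than in the control at 0 h, Rhox5 with 13.1, 15.7 and 14.7 TPM against 24.8, 24.9 and 28.8. At 96 h Rhox5 held 21.4, 20.9 and 21.5 TPM, near the control at 23.2, 24.3 and 25.2. Before doxycycline 10 of the 15 germline genes and 10 of 14 genes of the state that resembles the 2-cell embryo were lower in the transgene line and none was higher, against 5.94% of all genes lower and 7.22% higher. In the response 1 of the 14 passed (7.14%), Zscan4f, higher (0.27 ± 0.08).

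RNAs of targets and components of TGF-beta family signalling changed in both directions, with 2 of 15 higher and 4 lower. In all 40% of the 15 passed, beside 8.23% of all genes. At 0 h 8 of the 15 were already higher in the transgene line and 1 was lower, against 7.22% and 5.94% of all genes. The part of this earlier difference in the responses was not tested. Id2, a BMP target that blocks basic helix-loop-helix factors, went from 21.0, 21.5 and 21.3 to 45.2, 44.3 and 46.4 TPM in the transgene line and reached 24.6, 26.6 and 24.4 in the control (0.71 ± 0.10, edgeR adjusted p = 5.42e-08). Fst, the activin antagonist follistatin, went from 12.6, 13.7 and 13.9 to 31.1, 30.4 and 30.8 TPM, against 16.9, 17.3 and 18.9 in the control at 96 h (0.45 ± 0.09, edgeR adjusted p = 0.000151). Lefty2, a Nodal target and antagonist, fell in both lines and more in the transgene line, from 93.5, 93.0 and 96.4 to 44.1, 47.2 and 45.3 TPM, where the control went from 68.1, 64.3 and 68.7 to 40.3, 44.2 and 41.4 (-0.53 ± 0.05, edgeR adjusted p = 8.66e-12). At 96 h Lefty2 did not separate the lines (-0.01 ± 0.04). Tdgf1, Id4 (-0.54 ± 0.12) and Smad6 (-0.42 ± 0.14) were the other lower members.

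Cell cycle genes that passed were mainly lower. Of 20 cyclins, their kinases and inhibitors 6 were lower and 1 was higher, beside 4.95% lower and 3.28% higher over all genes. The median of the list was -0.01, as it was over all genes. Before doxycycline 6 of the 20 were higher in the transgene line and 1 was lower. With limma on log2(TPM + 1) 2 of the 20 passed. Cyclin D1 (Ccnd1) went from 48.8, 47.7 and 47.0 to 36.5, 37.2 and 37.5 TPM in the transgene line, and the control stood at 39.1, 39.5 and 37.9 and then 39.0, 35.7 and 36.8 (-0.34 ± 0.05, edgeR adjusted p = 1.52e-06). The other lower members were Ccna2 (-0.12 ± 0.04), Ccnb1 (-0.13 ± 0.04), Cdk2 (-0.14 ± 0.05), Cdk6 (-0.27 ± 0.06) and the inhibitor gene Cdkn1b (-0.25 ± 0.07). The higher one was Cdkn1a, the p53 target p21, at 80.7, 78.3 and 79.1 TPM in the transgene line at 0 h and 99.9, 98.5 and 97.0 at 96 h (0.39 ± 0.05, edgeR adjusted p = 1.21e-07). The control was at 98.5, 99.6 and 94.9 TPM at 0 h and 93.2, 86.3 and 89.3 at 96 h, so the transgene line began below the control and the lines did not differ by a passing amount at the end (0.10 ± 0.04).

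Of 13 genes of the Myc network 2 passed (15.4%, beside 8.23% of all genes), both lower. Mycl went from 14.2, 13.9 and 14.6 to 7.50, 7.30 and 7.28 TPM in the transgene line and to 10.1, 8.17 and 10.02 in the control (-0.63 ± 0.08, edgeR adjusted p = 7.89e-09). Myc rose in the control to 8.12, 7.50 and 7.56 TPM and ended at 5.71, 6.03 and 5.37 in the transgene line (-0.55 ± 0.11, edgeR adjusted p = 0.000384), a call that limma on log2(TPM + 1) did not make. Of 20 p53 targets 4 were higher, Plk2 (0.50 ± 0.07), Cdkn1a, Btg2 (0.31 ± 0.07) and Mdm2 (0.22 ± 0.04), and Ei24 was lower (-0.18 ± 0.04). In all 25% of the 20 passed, beside 8.23% of all genes. Of the same 20 genes 9 were lower in the transgene line at 0 h and 3 higher, Plk2 at 16.3, 15.6 and 14.2 TPM against 29.0, 28.2 and 27.9 in the control. At 96 h Plk2 stood at 17.6, 17.7 and 16.5 TPM in the transgene line and 21.3, 19.9 and 21.3 in the control, still lower in the former (-0.30 ± 0.05). For Plk2 the higher response is thus a smaller deficit at 96 h than at 0 h. The median of the list was 0.00.

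Lineage lists held between none and 18.2% of members that passed, beside 8.23% of all genes. Trophoblast genes had 2 higher of 13 (Ascl2 and the X-linked homeobox gene Esx1, 0.64 ± 0.19), formative and primed epiblast genes 2 of 11 (Dnmt3a and Dnmt3b) and primitive endoderm genes 1 of 15. That gene was Lrp2, the endocytic receptor megalin, at 2.45, 2.63 and 2.29 TPM in the transgene line at 0 h and 4.31, 4.01 and 4.13 at 96 h, where the control reached 3.40, 3.06 and 3.24 (0.56 ± 0.07, edgeR adjusted p = 2.76e-09). The defining endoderm genes Gata6 and Gata4 stayed at or under 1.17 TPM in all 12 libraries. Col5a1, a collagen gene of the fibroblast list, rose from 2.00, 1.64 and 1.47 to 3.37, 3.35 and 2.89 TPM in the transgene line, and the control held 1.26, 1.34 and 1.18 and 1.16, 0.976 and 1.08 (1.07 ± 0.10, edgeR adjusted p = 5.15e-14), with Col1a1 at or under 0.324 TPM. None of 6 mesendoderm and none of 7 neuroectoderm genes tested passed in edgeR, DESeq2 or limma, and at an unadjusted edgeR p under 0.05 there were 2 and 0. T (brachyury) had the smallest p of them (-0.82 ± 0.29, edgeR adjusted p = 0.0696).

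Adhesion and cytoskeleton genes that passed were mostly higher. E-cadherin (Cdh1) went from 107, 110 and 106 to 128, 130 and 128 TPM in the transgene line and from 119, 121 and 114 to 119, 116 and 116 in the control (0.21 ± 0.04). The tight junction gene Cldn4 went from 40.4, 41.1 and 41.2 to 56.6, 55.6 and 55.6 TPM and, in the control, from 39.8, 42.3 and 39.9 to 46.5, 46.3 and 43.1 (0.24 ± 0.06). With Cdh3 they made 3 higher of 18, and the integrin gene Itgb1 was lower (-0.22 ± 0.05). In all 22.2% of the 18 passed, beside 8.23% of all genes. Cdh1 and Cdh3 are neighbours on chromosome 8. The cytoplasmic actin genes Actb (0.19 ± 0.05) and Actg1 (0.18 ± 0.05) were the 2 higher of 16 actin, SRF and YAP targets (12.5% passed).

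Lists of the growth machinery had 13.2% (ribosomal proteins) and 10% (respiratory chain) of their members passing, all lower and by small amounts. Over all genes 4.95% passed lower and 8.23% in either direction. At an unadjusted edgeR p under 0.05 there were 28 and 25 members in either direction, and 3610 of all 17565 genes. Of 76 cytosolic ribosomal protein genes 10 were lower and none higher (median -0.10), and of 80 nuclear genes of the respiratory chain 8 were lower and none higher (median -0.07). Rpl32 (-0.21 ± 0.05), Rpl30 (-0.25 ± 0.06) and Rps25 (-0.23 ± 0.06) were among the first, and in each the control rose (0.21, 0.27 and 0.21) while the transgene line moved by -0.03 to 0.02. Cox6c (-0.24 ± 0.05) also rose in the control (0.29), whereas Cox7a1 (-0.52 ± 0.12) went from 61.2, 54.5 and 56.1 to 47.0, 43.4 and 41.8 TPM in the transgene line. With limma on log2(TPM + 1) 1 gene of each of these lists passed. Of 13 mitochondrially encoded genes 1 passed (mt-Nd4l, -0.25 ± 0.08), and it did not pass in 16 of 21 alternatives. Their median was -0.17, and 6 had an unadjusted edgeR p under 0.05. Mitochondrially encoded genes held 3.87 to 3.89% of the counts in the transgene line at 96 h and 4.24 to 4.46% in the control at 96 h, with no overlap, against 3.42 to 3.63% at 0 h in both lines. The part of this in the results was not tested. Of 37 proteasome genes 1 passed (Psmd3, 0.17 ± 0.05).

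Most stress and metabolic lists had members that passed in both directions, while interferon genes and mitochondrial protein quality control had 1 lower member each. From 8.33% (mitochondrial protein quality control) to 31.25% (chaperones) of a list passed, beside 8.23% of all genes. Among 23 genes of the integrated stress response Asns (-0.25 ± 0.04) and Slc7a3 (-0.16 ± 0.05) were lower and Aldh18a1 (0.19 ± 0.05) and Ddit4 (0.36 ± 0.11) higher. At 0 h 14 of these 23 were already higher in the transgene line and 1 was lower, against 7.22% and 5.94% of all genes. Among 16 chaperone genes Hsph1 (0.19 ± 0.04), Hsp90ab1 (0.13 ± 0.04) and Xbp1 (0.18 ± 0.05) were higher, and Hsp90aa1 (-0.31 ± 0.06) and Hsp90b1 (-0.19 ± 0.04) lower. Cholesterol synthesis had 2 higher and 3 lower of 21 (Dhcr7 0.29 ± 0.06 and Idi1 -0.23 ± 0.05), glycolysis and hypoxia 2 and 2 of 24 (the glucose transporter gene Slc2a1 0.17 ± 0.05 and Pfkp -0.20 ± 0.04), FGF/ERK targets 2 and 2 of 14 (Spred2 0.25 ± 0.06 and Spry2 -0.22 ± 0.05) and Wnt targets 2 and 2 of 14 (Notum 0.28 ± 0.07 and Cdx1 -0.32 ± 0.09). Of 8 interferon genes tested Ddx58 was lower (-0.23 ± 0.06), and of 12 genes of mitochondrial protein quality control Yme1l1 (-0.19 ± 0.05). With limma on log2(TPM + 1) 1 of the 23 integrated stress response genes passed, 0 of the 21 cholesterol genes and 3 of the 16 chaperone genes.

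Lists tied to Firre itself differed in how many members passed, beside 8.23% of all genes. None of 5 genes described in trans contact with Firre passed in edgeR, DESeq2 or limma, and 1 had an unadjusted edgeR p under 0.05, as 3610 genes did in all. That gene was Ppp1r10, a regulator of protein phosphatase 1 (0.17 ± 0.06, edgeR adjusted p = 0.0679). Of 15 genes of the nuclear matrix, CTCF and cohesin 2 were lower, Lmna (-0.28 ± 0.08) and the X-linked cohesin gene Stag2 (-0.20 ± 0.06; it did not pass in 10 of 21 alternatives). Of 12 Polycomb complex genes Eed (-0.26 ± 0.04) and Mtf2 (-0.24 ± 0.05) were lower and Aebp2 (0.17 ± 0.05) higher. Among 11 tested neighbours of the Firre locus Hs6st2 (1.47 ± 0.48) and Usp26 (0.60 ± 0.16) were higher, and Hs6st2 did not pass in 13 of 20 alternatives, with values from 0.14 to 1.80. Usp26 fell in both lines, from 5.91, 6.09 and 5.49 to 1.20, 1.66 and 1.65 TPM in the control and from 2.39, 2.12 and 2.08 to 0.814, 0.896 and 0.994 in the transgene line, and it did not pass when replicate 1, 2 or 3 of every group was left out. None of 6 genes of the X inactivation centre and none of 8 replication-dependent histone genes passed in edgeR, DESeq2 or limma, and none had an unadjusted edgeR p under 0.05.

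**Figure D3:**
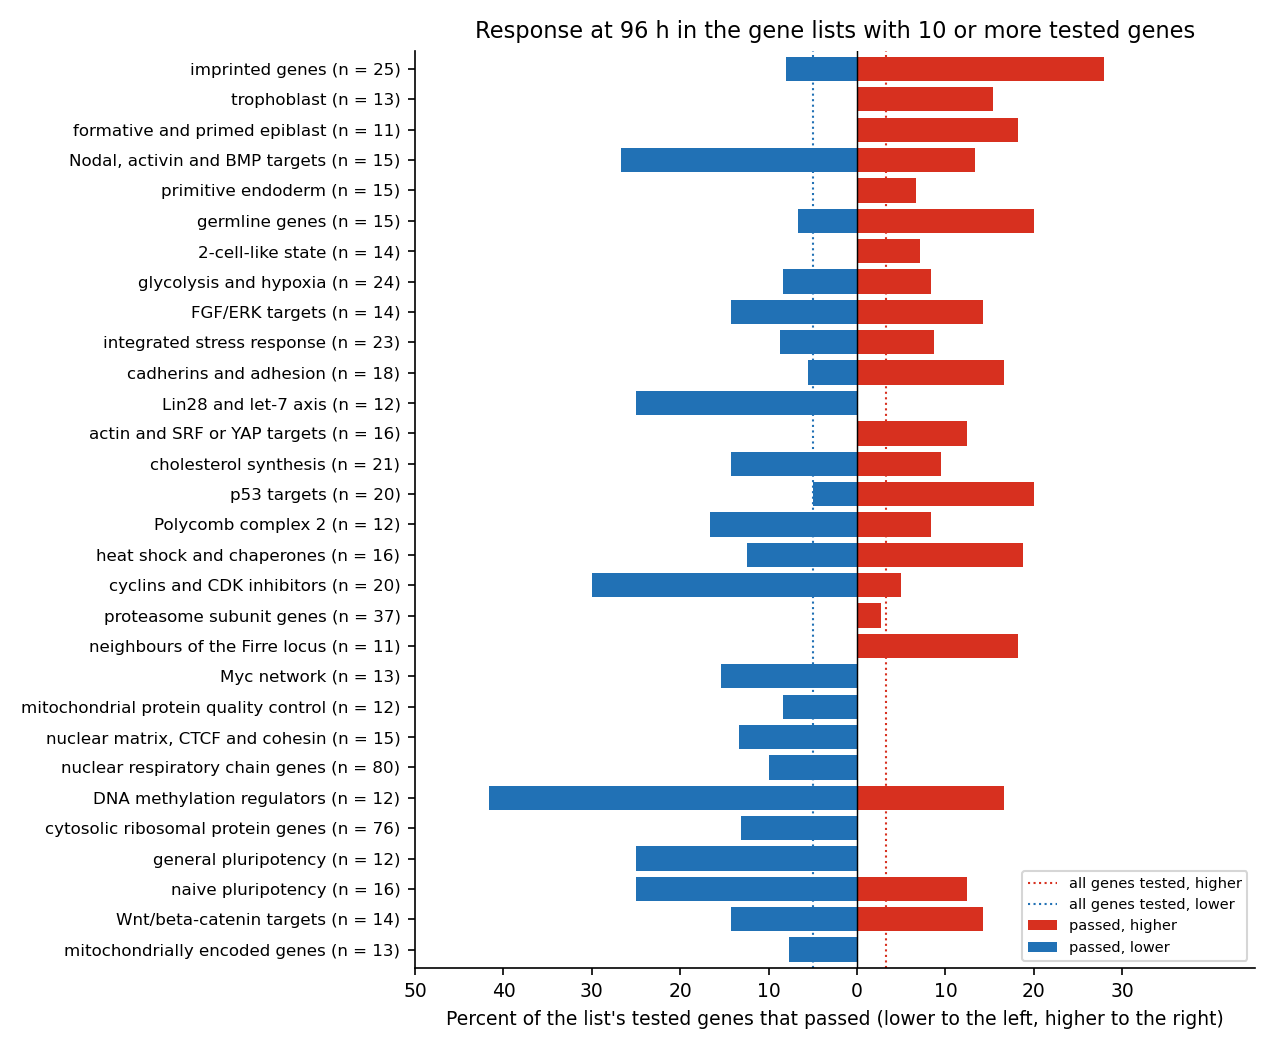
Share of the tested genes of each list that passed higher (right, red) or lower (left, blue) in the response at 96 h, for lists with 10 or more tested genes, ordered by their median fold change. Dotted lines give the shares over all genes tested, 3.28% higher and 4.95% lower. DNA methylation regulators have the highest share lower and imprinted genes the highest share higher.

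The response was also measured at earlier times of the same course, which share the 0 h libraries with 96 h, so values are only set side by side. At 12, 24 and 48 h 102 (0.581%), 325 (1.85%) and 449 genes (2.56%) passed. Firre itself passed at each, with 0.72 ± 0.06, 0.28 ± 0.06 and 0.38 ± 0.06 (edgeR adjusted p = 2.78e-15, 0.00313 and 1.21e-05), before 0.17 ± 0.06 at 96 h. Shf had 2.15 ± 0.12 at 12 h, 2.00 ± 0.11 at 24 h, 2.03 ± 0.11 at 48 h and 2.57 ± 0.12 at 96 h. Rapgef4 had 4.91 ± 0.53, 4.45 ± 0.51, 4.54 ± 0.52 and 5.71 ± 0.53, and Apod 2.67 ± 0.17, 2.64 ± 0.18, 2.40 ± 0.17 and 2.49 ± 0.16. These 3 genes passed from 12 h on, with values within 0.7 of each other for Shf and Apod. Peg10 had 0.03 ± 0.11, 0.23 ± 0.10 and 0.72 ± 0.10 at those times before 0.87 ± 0.10 at 96 h, Trh -0.12 ± 0.05, -0.60 ± 0.05 and -0.77 ± 0.05 before -0.86 ± 0.05, and Tfap2a 0.52 ± 0.24, 0.74 ± 0.23 and 1.21 ± 0.23 before 1.21 ± 0.23. For these 3 genes the value at 12 h was the smallest of the 4.

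The step from 48 to 96 h was tested directly, without the 0 h libraries. It passed in 78 genes (0.444%), 36 higher (0.205%) and 42 lower (0.239%). Among the named genes the response was higher at 96 than at 48 h for Adgrg1 (1.68 ± 0.22, edgeR adjusted p = 1.52e-06), Shf (0.54 ± 0.11), Impdh1 (0.44 ± 0.06), Nceh1 (0.40 ± 0.08), Ror1 (1.21 ± 0.29), Col5a1 (0.45 ± 0.10), Flnc (0.49 ± 0.12), Id2 (0.38 ± 0.09) and Peg3 (0.27 ± 0.05). Ror1 had stood at -0.01 ± 0.30 at 48 h, and Adgrg1 at 2.99 ± 0.23, 2.46 ± 0.23 and 2.10 ± 0.24 at 12, 24 and 48 h, lowest at 48 h. The response was lower at 96 than at 48 h for Trpm1 (-0.50 ± 0.09), Platr16 (-0.76 ± 0.17), Lefty2 (-0.30 ± 0.06) and Tdgf1 (-0.23 ± 0.05). The count was 388 without replicate 1, 4 without replicate 2 and 6 without replicate 3 of every group, so it changed with the replicates kept. These fits have fewer samples, and the part of single libraries in the count was not tested.

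The short course, sampled up to 330 min in other libraries of the same lines, allows a comparison that shares no sample with the 96 h response. Its mean response over 11 times passed in 27 genes (0.15%). Of these 21 passed at 96 h too (77.8% of the short list and 1.45% of the 96 h list), all in the same direction. Among the 15 largest rises 9 passed in the short course: Rapgef4 (2.11 ± 0.49), Duox1 (2.63 ± 0.46), Adgrg1 (2.26 ± 0.27), Shf (1.71 ± 0.13), Apod (1.09 ± 0.24), Nceh1 (0.70 ± 0.09), Cdh3 (0.47 ± 0.09), Impdh1 (0.41 ± 0.07) and Pde6d (0.77 ± 0.11). Among the 15 largest falls none did, and 8 had the same sign. Firre itself, which passed in the short course (3.47 ± 0.12, edgeR adjusted p = 1.02e-30), and the growth factor carrier gene Fgfbp3 (1.94 ± 0.30 there and -0.50 ± 0.42 at 96 h) did not pass at 96 h. Gfap, an intermediate filament gene of astrocytes, passed in both (3.68 ± 0.62 and 3.25 ± 0.50). Fgfbp3 and Gfap are outside the rule for named genes and were chosen after their values were seen.

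The rescue contrast repeats the design in a Firre knockout (KO) background, with a KO control and a KO transgene line and the same times, and shares no library with the overexpression. At 96 h it passed in 940 genes (5.35%), 483 higher (2.75%) and 457 lower (2.6%). Of these 347 also passed in the WT background, which is 24% of the overexpression list and 36.9% of the rescue list. In 336 of the 347 the direction was the same, 187 higher and 149 lower. All 15 largest rises had the same sign in the KO background and 13 passed there. Of the 15 largest falls 14 had the same sign and 4 passed (Birc7, Trpm1, Tnfaip3 and Trh). Over all genes that passed in the WT background, 82.0% of the higher and 75.6% of the lower ones had the same sign in the rescue.

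Shf rose by almost the same amount in both backgrounds (2.57 ± 0.12 and 2.58 ± 0.10), with a difference of -0.01 ± 0.16 (edgeR adjusted p = 0.995). For Impdh1 the values were 1.18 ± 0.06 and 1.26 ± 0.06, for Cdh3 1.48 ± 0.09 and 1.57 ± 0.08 and for Apod 2.49 ± 0.16 and 2.33 ± 0.17. Id2 (1.03 ± 0.10), Peg10 (0.76 ± 0.09), Col5a1 (0.98 ± 0.09), Lin28a (-0.35 ± 0.04) and Hmga2 (-0.64 ± 0.09) also passed in the rescue, in the direction they had in the WT background.

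The difference between the backgrounds was itself tested and passed in 196 genes (1.12%), 119 of them among the 1446. Firre had the largest difference among the named genes (4.91 ± 0.42 in the rescue, difference -4.74 ± 0.41). Its folds start from unlike baselines, KO cells and cells that carry the gene, and do not compare amounts of Firre. Adgrg1 rose more in the WT background (1.37 ± 0.31, edgeR adjusted p = 0.0107). Pramel7 fell in the WT background and had 0.00 ± 0.20 in the rescue (difference -1.19 ± 0.24, edgeR adjusted p = 0.00207), and Platr16 (-0.91 ± 0.23) and Trh (-0.39 ± 0.08) fell more there. Hormad1 (0.37 ± 0.11 in the rescue) and Klf4 (-0.25 ± 0.05) passed in opposite directions in the backgrounds, with differences of -0.85 ± 0.16 and 0.43 ± 0.07. Rhox5 (1.27 ± 0.09) and Peg3 (0.81 ± 0.04) rose more in the rescue. For Rapgef4 and Duox1 the differences of 2.14 ± 0.65 and 1.70 ± 0.56 did not pass (edgeR adjusted p = 0.0832 and 0.131). The p53 targets Plk2 (-0.04 ± 0.07) and Cdkn1a (0.08 ± 0.05), higher in the WT background, did not pass in the rescue, and their differences did (0.54 ± 0.09 and 0.31 ± 0.08). The count of 196 was 174, 14 and 30 without replicate 1, 2 or 3 of every group.

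**Figure D4:**
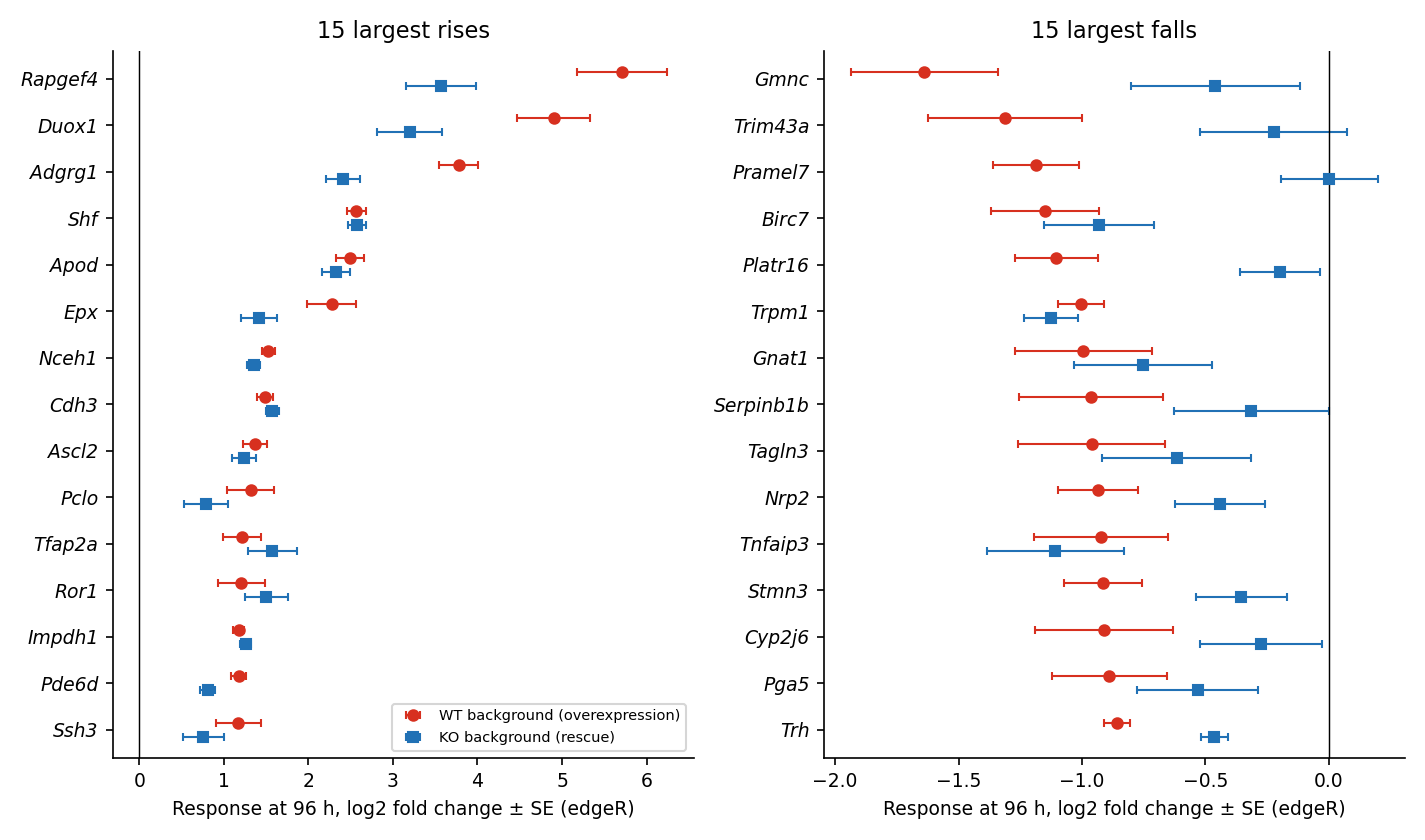
Response at 96 h (log2 fold change with its standard error, edgeR) in the WT background (red circles) and in the KO background (blue squares) for the 15 largest rises and falls in the WT background. The rises lie on the same side of 0 in both backgrounds, and 14 of the 15 falls do. Over all genes that passed in the WT background, 82.0% of the higher and 75.6% of the lower ones do. The genes shown were chosen by the WT values.

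The genes that passed were not spread evenly over the chromosomes. On chromosome 11 96 of 1286 tested genes were higher and 29 lower (9.72%), so 76.8% of its calls were higher, against 36.4% among all other genes tested. Of the higher genes named above Epx, Cuedc1, Tex19.1, Notum, Actg1, Spred2, Psmd3 and Gfap lie there; genes with no matched position, such as Xbp1, were not placed. The median of its genes with a mean of at least 5 CPM, relative to all genes, stood at 0.051, 0.058 and 0.052 (log2) in the WT control at 0 h and between -0.030 and -0.001 in the other 9 libraries. The 3 WT control libraries at 0 h thus stood apart from the rest, and that group enters the response with its sign reversed. The difference between the lines at 0 h had 33 higher and 165 lower genes on chromosome 11. Without chromosome 11 the response had 1321 genes that passed, 481 higher and 840 lower. The part of this shift in the single genes was not tested.

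On the X chromosome 53 of 558 tested genes were lower and 18 higher (12.7%), and on the Y 4 of 11 were lower. Over all genes 4.95% passed lower and 3.28% higher (8.23%). By library the X median, taken as for chromosome 11, was 0.014 to 0.025 in the transgene line at 0 h and -0.041 to -0.014 at 96 h. In the control it was -0.007 to 0.007 and then -0.033 to 0.031, so the lines differed at 0 h and overlapped at 96 h. The part of the 0 h difference in the response was not tested. The medians of the response were -0.06 on the X and 0.06 on chromosome 11, and on the other autosomes they lay between -0.05 and 0.02. In the rescue the X had a median of 0.05 and chromosome 11 one of -0.01.

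**Figure D5:**
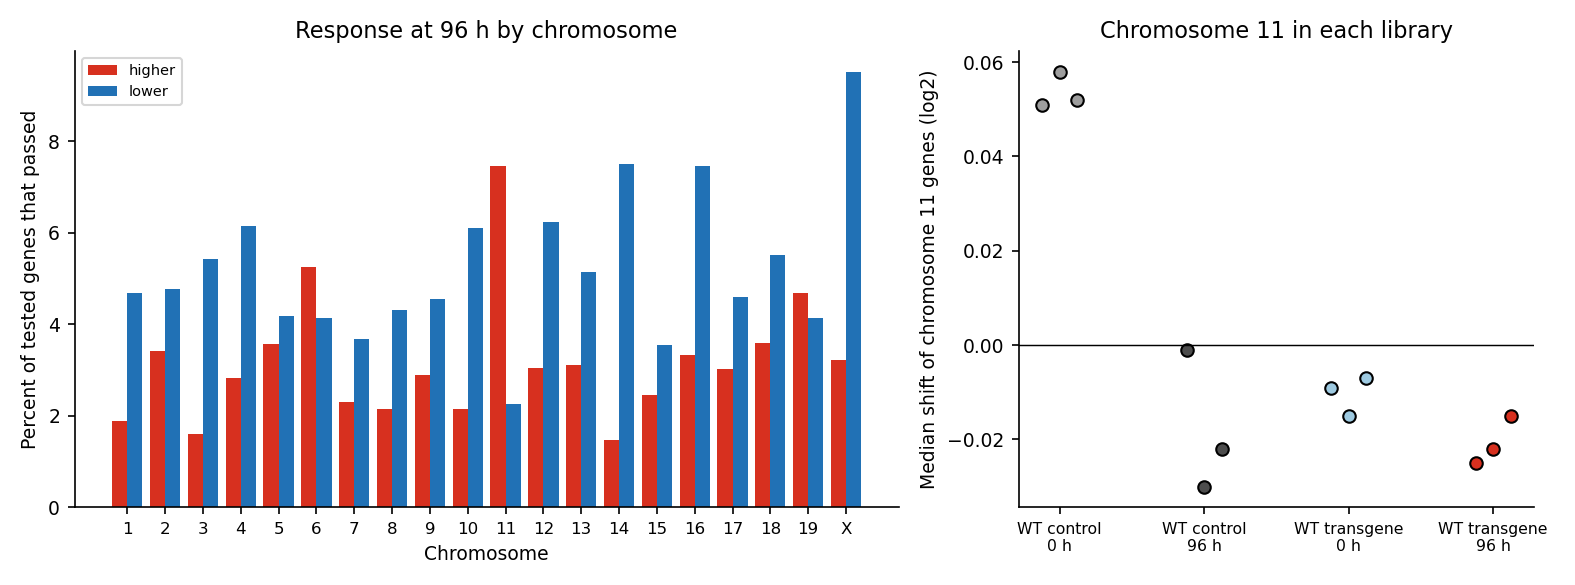
Left, percent of the tested genes on each chromosome that passed higher (red) or lower (blue) in the response. Right, median shift of chromosome 11 genes (log2, relative to all genes and to the mean of the 12 libraries) in each library; the 3 WT control libraries at 0 h lie between 0.051 and 0.058 and the other 9 at or under -0.001.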

How the data were processed

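RNA-seq libraries (poly(A) RNA, a kit that does not mark strand, per the labels' protocols) were quantified with Salmon 1.5.2 on mm10, per the submitters' processing notes. The deposited table gives expected counts per gene, and a second deposited table gives TPM, for 40914 genes; the aggregation from transcripts is not stated. The counts were rounded to whole numbers. Depth over the 12 libraries was 24318555 to 37733949 counts, which limits the precision of genes with few counts.

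All 60 long-course libraries (20 groups of 3) were fitted with edgeR 4.0.16 in R 4.3.3, with TMM scaling, filterByExpr (minimum count 10, minimum total 15) and the robust quasi-likelihood test, and Benjamini-Hochberg adjustment over 17565 genes; the short course was fitted apart. Standard errors are the fold change divided by the root of F. Tested on simulated counts for the response, 66% of genes changed 1.25-fold, 78% at 1.5-fold, 98% at 2-fold and 100% at 4-fold were recovered, with 6 false calls among 17260 genes. The simulation gave every group the same mean apart from the changed genes, which were chosen above a set expected count. It held no difference between lines or times, no outlying library and no changed gene of low count. Its rates may therefore not hold for the real response.

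Alternatives were RLE scaling, no filter, DESeq2 1.42.0, the replicate number as a block, the 12 libraries alone, each replicate number or library left out and, added later, limma 3.58.1 on log2(TPM + 1). The genes named are Firre, the 15 largest changes each way among genes that passed with a mean of at least 1 CPM and a symbol that is not provisional, up to 4 members that passed of each of 37 lists by smallest p, and genes that passed within 500 kb of those 30. Of a list with none, the 2 of smallest p may be named. Members named past 4 of a list were chosen after their values were seen. Members and lists were chosen with earlier results of these data known. Positions are from GENCODE M21 (mm10; 40140 IDs matched) and promoters from RefSeq (GRCm38.p6).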

Additional observations from a re-analysis of the deposited data

Results flagged for a closer look

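The overexpression and the rescue at 96 h, the same contrast in the WT and in the Firre KO background, differed by edgeR's test of the difference in 196 genes. The named genes among them follow with the difference as WT minus KO on the log2 scale. Firre differed by -4.74, between folds that start from unlike baselines (KO cells and cells that carry the gene). Adgrg1 (1.37), Usp26 (0.78), Flnc (0.63), Plk2 (0.54), Klf4 (0.43) and Cdkn1a (0.31) had the higher response in the WT background. Pramel7 (-1.19), Platr16 (-0.91), Hormad1 (-0.85), Rhox5 (-0.67), Zfp986 (-0.50), Ccnd1 (-0.43), Gm13212 (-0.40) and Trh (-0.39) had the lower one. So had Rian (-0.39), Dnmt3l (-0.36), Idi1 (-0.32), Peg3 (-0.30), Itgb1 (-0.26), Hsp90b1 (-0.23) and L1td1 (-0.21).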

How the results depend on the processing

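The count of 1446 genes in the response was 1448 with RLE scaling, 1350 with no filter, 1437 with DESeq2 and 1335 with the 12 libraries alone, and 352 with limma on log2(TPM + 1), added after the data were seen. It ranged from 400 to 1530 with a replicate number left out of every group and from 953 (without replicate 2 of the WT control at 96 h) to 1843 with 1 library left out. With a replicate number left out the lines at 96 h differed in 1574 to 3217 genes and at 0 h in 1090 to 1455, the late step passed in 4 to 388, the rescue in 449 to 522 and the difference from the rescue in 14 to 174; these fits have fewer samples. The late step passed in 239 genes with no filter and 125 with DESeq2. The replicate numbers did not pair the libraries: same-numbered libraries had correlated deviations of -0.158 to 0.169, and 2 of 12 correlated best with their own number. With the replicate block 1649 genes passed in the response, all 1446 among them, and 166 in the late step; it moved no other count by over 1.5 times and ended no named gene's call. Of 144 named genes that passed 51 kept their call in every alternative that gave a value, and limma on log2(TPM + 1) ended it for 77. Only Xist, which did not pass, changed sign (-0.0018 without replicate 1, up to 0.908 without replicate 3). The causes were not tested. Depth limits genes under 1 CPM.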
